A study of Mus musculus with 12 samples.

Results

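Open chromatin was compared in progenitors of wild-type (WT) mice and of mice homozygous for a deletion of the upstream regulatory element of Spi1 (UREd/d, called URE here), and 1808 of 121336 regions (1.49%) were gained in URE granulocyte-monocyte progenitors (GMP) at sites that met limits for little change in the other comparisons. Accessibility was the mean CPM of each group (counts scaled by the total of the library) plus a pseudocount of 0.25 CPM, which all values and ratios of the rule include. A region was kept when WT-GMP over WT-LSK lay between 0.5 and 2, URE-GMP was at least 1.5, URE-GMP over WT-GMP was at least 2.5, and URE-LSK over WT-LSK lay between 0.67 and 1.5. These limits used the values of all 12 libraries, so the levels and fold changes of the regions are a description of how they were chosen and carry no test. LSK are Lin-Sca-1+c-Kit+ cells, which hold the stem cells and early progenitors, and GMP were sorted as Lin-Sca-1-c-Kit+Cd16/32+ cells. Both genotypes had 3 libraries of either cell type, which makes 4 groups. The mice were littermates on the C57BL/6 background aged 8 to 12 weeks, with 3 mice per genotype and cell type. The deletion was carried by every cell of the URE mice, so cell types other than those sorted also lacked the element.

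Spi1 encodes PU.1, an ETS family transcription factor that opens and maintains enhancers in the myeloid lineage, and the deleted element is the distal enhancer that sustains its expression. C/EBP factors act with PU.1 in GMP and drive granulocyte genes. RUNX1 is a further partner of PU.1 in stem and progenitor cells. ATAC-seq reads out where a transposase can reach DNA, and distal open regions commonly mark enhancers.

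The sequence around the centre of the gained regions held the C/EBP motif often and the PU.1 motif rarely. The 6 stretches below are 200 bp each, from the middle of regions that are described further on, and are shown because they hold this motif. They are from the RefSeq sequence of GRCm38, plus strand, 5′ to 3′. Capitals mark TTGCNNAA or its reverse complement TTNNGCAA (CEBP, a C/EBP site with 2 free bases, which need not be palindromic). They also mark TGATGCAA on either strand (CEBP-ATF, a site of C/EBP paired with an ATF factor).
Adamts9 intron, chr6:92784478-92784677: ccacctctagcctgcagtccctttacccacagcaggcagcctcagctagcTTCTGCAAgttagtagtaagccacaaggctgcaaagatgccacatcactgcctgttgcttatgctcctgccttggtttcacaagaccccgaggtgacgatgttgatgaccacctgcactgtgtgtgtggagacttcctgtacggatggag
Syne2 exon, chr12:75905368-75905567: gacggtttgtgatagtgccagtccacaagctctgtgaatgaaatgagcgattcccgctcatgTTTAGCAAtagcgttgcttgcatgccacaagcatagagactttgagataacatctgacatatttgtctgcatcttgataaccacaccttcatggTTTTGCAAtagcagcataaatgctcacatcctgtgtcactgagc
Tinagl1 promoter, chr4:130175503-130175702: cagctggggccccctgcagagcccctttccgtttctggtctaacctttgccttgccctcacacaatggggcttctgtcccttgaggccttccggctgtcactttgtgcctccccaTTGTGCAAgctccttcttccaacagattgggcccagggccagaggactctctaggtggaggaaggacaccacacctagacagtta
Trib1 flank, chr15:59707194-59707393: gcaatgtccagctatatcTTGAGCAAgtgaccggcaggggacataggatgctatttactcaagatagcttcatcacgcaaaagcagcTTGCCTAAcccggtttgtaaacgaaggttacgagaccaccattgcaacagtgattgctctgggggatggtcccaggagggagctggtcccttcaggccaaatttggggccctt
Atg14 intron, chr14:47557997-47558196: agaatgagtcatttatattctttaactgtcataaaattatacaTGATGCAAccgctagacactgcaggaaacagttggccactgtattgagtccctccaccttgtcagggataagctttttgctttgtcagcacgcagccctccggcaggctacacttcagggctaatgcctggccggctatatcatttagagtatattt
Itga1 intron, chr13:115006347-115006546: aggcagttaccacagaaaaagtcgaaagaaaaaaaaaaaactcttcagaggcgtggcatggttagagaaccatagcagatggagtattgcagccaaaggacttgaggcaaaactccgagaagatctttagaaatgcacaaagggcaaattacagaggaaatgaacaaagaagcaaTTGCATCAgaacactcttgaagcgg

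The first 4 stretches hold CEBP matches, with 2 each in the Syne2 exon and beside Trib1. The Atg14 and Itga1 introns hold a CEBP-ATF match and no CEBP match in the printed stretch.

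In the central 300 bp, 632 of the 1808 regions (35%) held a CEBP match, against 16.4% of all regions. Within the gained regions the share depended on the level in LSK. It was 39% in the 1166 under 0.5 CPM in both LSK groups and 23.5% in the 383 at 1 CPM or more in WT-LSK or URE-LSK. The share was 36.4% among the 14348 regions that were at least 2.5 times higher in WT-GMP compared with WT-LSK, which are called sites that open in WT-GMP below. It was 20.5% among 1462 regions gained in both URE cell types, 12% among 1214 regions gained only in URE-LSK and 10.9% among 598 regions lost only in URE-GMP. These sets were chosen with the same kind of limits on the same libraries, and no set was tested against another.

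CEBP-ATF matches were found in 105 of the gained regions (5.81%), against 1.49% of all regions and 3.99% of those that open in WT-GMP. Of the spelled-out forms of the CEBP motif, TTGCACAA was the most frequent in the gained regions (6.64%, against 2.16% of all regions), followed by TTGCTCAA (5.53%, against 1.87%). The palindromic form TTGCGCAA was in 0.387%, against 0.189% of all regions. CEBP or CEBP-ATF was present in 706 regions (39%), so most of the gained regions had neither string. Matches of CEBP lay close to the region centre. In the 50 bp on either side of the centre the regions had 2.1 and 2.46 matches per 1000 regions per bp, against 0.431 in the bin that starts 500 bp upstream. The same central bins had 2.28 and 2.32 matches in regions that open in WT-GMP.

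PU.1 matches (GAGGAAGT) went the other way. They were present in 38 of the gained regions (2.1%), in 8.7% of all regions, in 9.66% of those that open in WT-GMP and in 12.4% of those lost only in URE-GMP. The difference was smaller from the 34508 regions unchanged in both cell types, which held PU.1 in 3.57%. Away from promoters PU.1 was in 2.09% of the gained and 4.4% of the unchanged regions. Among the gained regions the share was 1.8% under 0.5 CPM in both LSK groups and 3.66% at 1 CPM or more in WT-LSK or URE-LSK. At the centre the gained regions had 0.0996 PU.1 matches per 1000 regions per bp in either bin, against 0.549 and 0.584 in regions that open in WT-GMP. The gained regions thus had a CEBP share near that of sites opening normally in GMP and a PU.1 share near that of regions gained only in URE-LSK (1.98%) or in both cell types (1.78%). CEBP and PU.1 matches occurred together in 7 regions (0.387%), against 2.54% of the regions that open in WT-GMP.

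**Figure D1:**
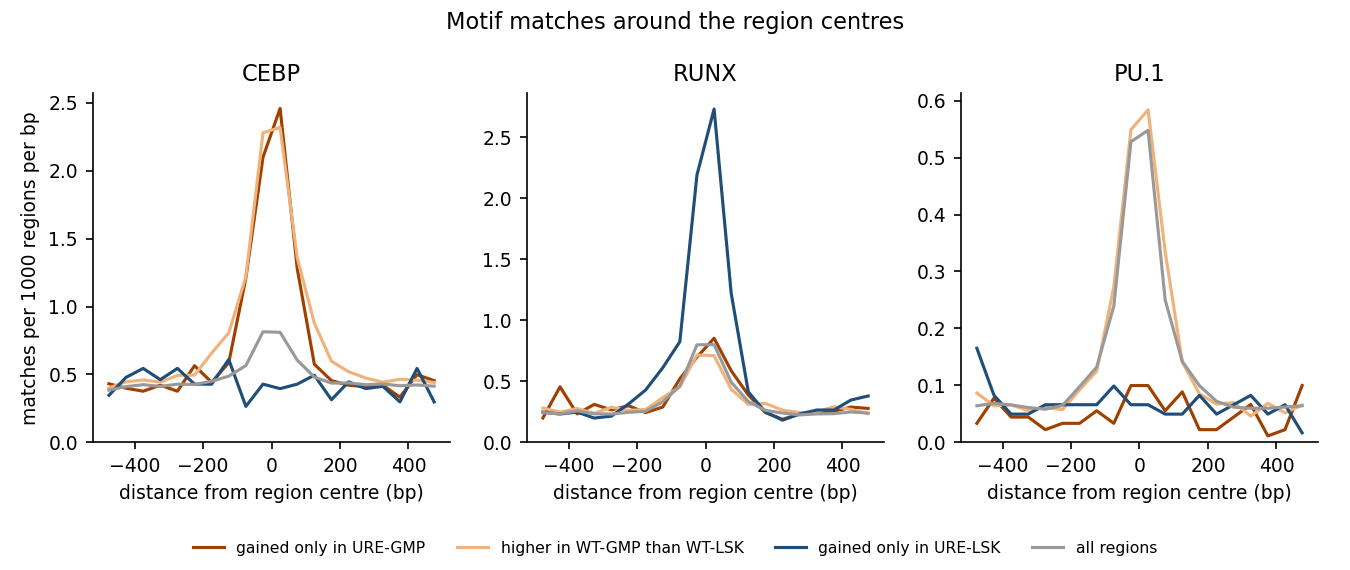
Motif matches per 1000 regions per bp (y axis) in 50 bp bins by distance from the region centre in bp (x axis), for CEBP, RUNX and PU.1, in 4 sets of regions drawn as lines. The regions gained only in URE-GMP have a central CEBP peak that reaches 2.46, and their PU.1 line reaches 0.0996 at the centre where all regions reach 0.548.

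RUNX matches (AACCACA) were found in 15.4% of the gained regions, near the 14.4% of all regions. The regions gained only in URE-LSK held RUNX in 34.5% and those gained in both cell types in 28.7%. AP-1 matches (TGANTCA) had a similar order, with 13.1% in the regions gained only in URE-GMP, 12.1% in all regions, 23.5% in those gained only in URE-LSK and 22.8% in those gained in both. GATA matches (AGATAA) were in 12.1% of the gained regions and in 27.3% of those gained only in URE-LSK. For these 3 motifs the gains of GMP stood near the level of all regions, and the regions gained only in URE-LSK above it.

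Motifs of promoters and of domain boundaries were uncommon. KLF/SP (GGGCGGGG) was in 2.21% of the gained regions against 5.98% of all regions, other ETS (CCGGAAGT) in 0.277% against 1.22%, and CTCF in 0.332% against 3.75%. In regions that open in WT-GMP, gained in both cell types and gained only in URE-LSK, KLF/SP was in 1.78%, 2.19% and 0.824%. CTCF was in 0.216%, 0.41% and 0.165% of these sets. Away from promoters KLF/SP was in 2.09% of the gained regions against 3.07% of all, and CTCF in 0.349% against 4.21%. MYB (TAACNG) was in 33.8% against 28.1%, Ikaros (TGGGAA) in 25.4% against 24%, STAT (TTCNNNGAA) in 7.41% against 8.33%, TBX (AGGTGTGA) in 1.44% against 1.1%, CREB (TGACGTCA) in 0.442% against 0.641% and PAR bZIP (TTACGTAA) in 0.332% against 0.176%. The IRF motif was in 3.21% against 4.93%, the GFI1 motif in 0.498% against 0.721% and the NFI motif in 0.166% against 0.0527%. All motifs were searched on both strands. Matches of different motifs may share bases, and a region then counts for each of them. Of the motifs in this paragraph, MYB was the only one more than 5 percentage points above its share of all regions. It was not particular to the gained regions, with 34.8% in regions that open in WT-GMP, 32.1% in those gained in both cell types and 30.7% in those gained only in URE-LSK. Away from promoters MYB was in 34% of the gained regions against 30% of all.

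**Figure D2:**
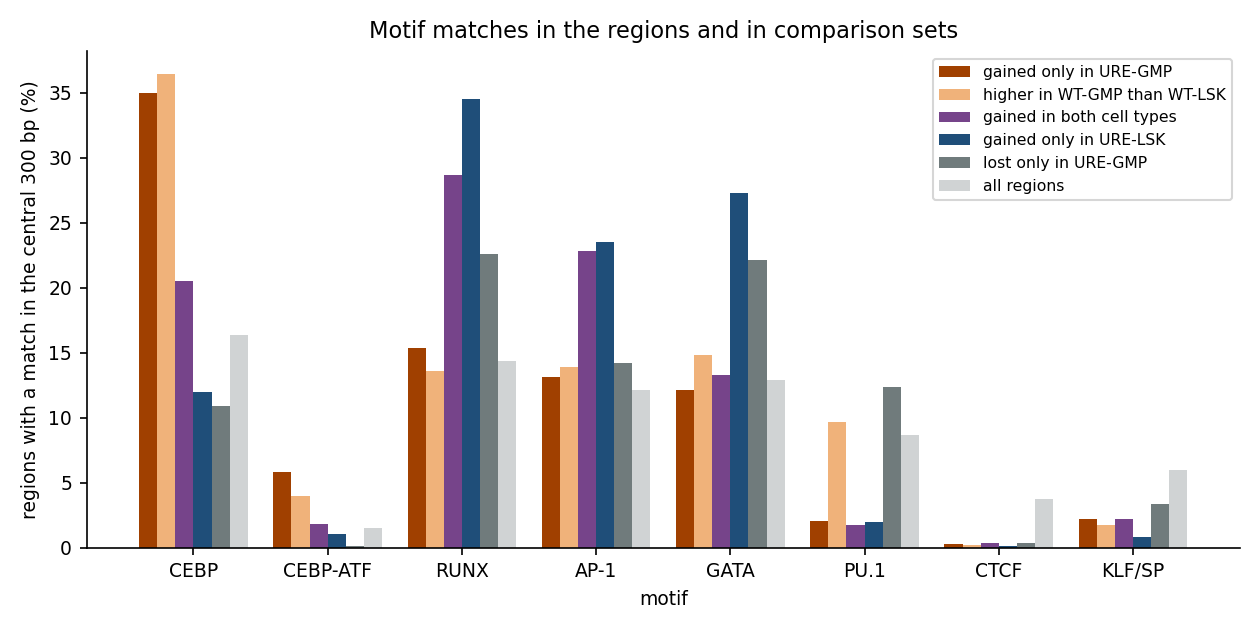
Percent of regions with a match in the central 300 bp (y axis) for 8 motifs (x axis), as 1 bar per set of regions. The regions gained only in URE-GMP reach 35% for CEBP and 2.1% for PU.1, whereas regions higher in WT-GMP compared with WT-LSK reach 36.4% and 9.66%.

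The CEBP share went up with the size of the gain. It was 27% in the 408 regions with a URE-GMP over WT-GMP ratio from 2.5 to 3, 28.9% in the 570 from 3 to 4, 40.7% in the 533 from 4 to 6 and 47.1% in the 297 at 6 or more. PU.1 had the opposite order, at 3.19%, 2.46%, 1.88% and 0.337%. RUNX had no such order, at 14.5%, 14.7%, 16.9% and 15.2%. The bands also differ in other respects, since regions with a ratio of at least 4 lay farther from genes, as given below. The level in LSK went with both values. Gained regions under 0.5 CPM in both LSK groups had a median GMP log2 fold change of 3.01 and a CEBP share of 39%. Those at 1 CPM or more in WT-LSK or URE-LSK had 1.83 and 23.5%. Whether the motif itself goes with the size of the gain was not tested.

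The libraries held between 23072701 and 62204826 counts, so that 3 counts stood for 0.0482 to 0.13 CPM, and 41 of the gained regions had at most 3 counts in each WT-GMP library. The 3 regions from 12 to 17 kb upstream of the Spi1 start, around the deleted element, summed to between 48.9 and 70.8 CPM in the 6 WT libraries and to at most 0.152 CPM in the 6 URE libraries. Regions within 5 kb of 6 GMP marker genes summed to 585.5 CPM in WT-GMP against 156.9 CPM in WT-LSK, and 4 LSK markers to 198.2 and 248.2 CPM. In URE-GMP the GMP markers summed to 742.7 CPM (libraries 728.6 to 758.2, against 521.2 to 654.1 in WT-GMP). They were higher than in WT-GMP for 5 of the 6 and lower for Ms4a3. The LSK markers summed to 195.9 CPM in URE-GMP. Late neutrophil markers (7 of 8 with a region) had 107.4 CPM in WT-GMP (libraries 92.4 to 117.6) and 157.3 CPM in URE-GMP (149.6 to 161.3), higher for 5 of the 7 and lower for Ltf and Mmp8, with Camp at 8.48 and 26.8 CPM and Ngp at 3.1 and 18.5 CPM. Monocyte markers had 148.9 and 84.3 CPM, lower for all 4, and markers of mature lineages (4 of 7 with a region) 42.3 and 24.2 CPM, the lowest being Cd4 at 0.974 and 0.1 CPM. No region lay within 5 kb of Ly6a, Fcgr3, Cd3e, Cd8a, Ly6g or Lcn2. A different makeup of the sorted GMP and a changed accessibility per cell cannot be told apart in bulk libraries, and the part of these markers in the gains was not tested. Regions on the Y chromosome had 653 to 1684 counts in 6 libraries, among them 2 of the 3 URE-GMP and 1 of the 3 WT-GMP libraries, and at most 9 in the others, and 15 of the gained regions were on the X chromosome and none on the Y chromosome. The median of the gained regions was 2.69 and 2.48 CPM in the URE-GMP libraries with Y counts and 0.454 CPM in the WT-GMP library with them, and 2.6 CPM against 0.524 and 0.307 CPM in those without.

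Most of the gained regions were nearly closed in every other group. Over the 1808 regions the median group mean was 2.57 CPM in URE-GMP, 0.436 CPM in WT-GMP, 0.308 CPM in URE-LSK, with 0.222 CPM in WT-LSK, and 1372 regions (75.9%) were under 1 CPM in all 3 other groups. Together they took 0.736%, 0.702% and 0.71% of the counts of URE-GMP replicates 1, 2 and 3. In WT-GMP they took 0.165%, 0.184% and 0.133%, in URE-LSK 0.152%, 0.164% and 0.186%, and in WT-LSK 0.13%, 0.135% and 0.138%. The 3 URE-GMP libraries were above the other 9 by a wide margin and close to each other, while WT-GMP replicate 3 was the lowest of its group and URE-LSK replicate 3 the highest of its group. A minority of the regions were open elsewhere, with 368 at 1 CPM or more in WT-GMP, 383 in WT-LSK or URE-LSK and 60 at 5 CPM or more in WT-LSK or URE-LSK.

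**Figure D3:**
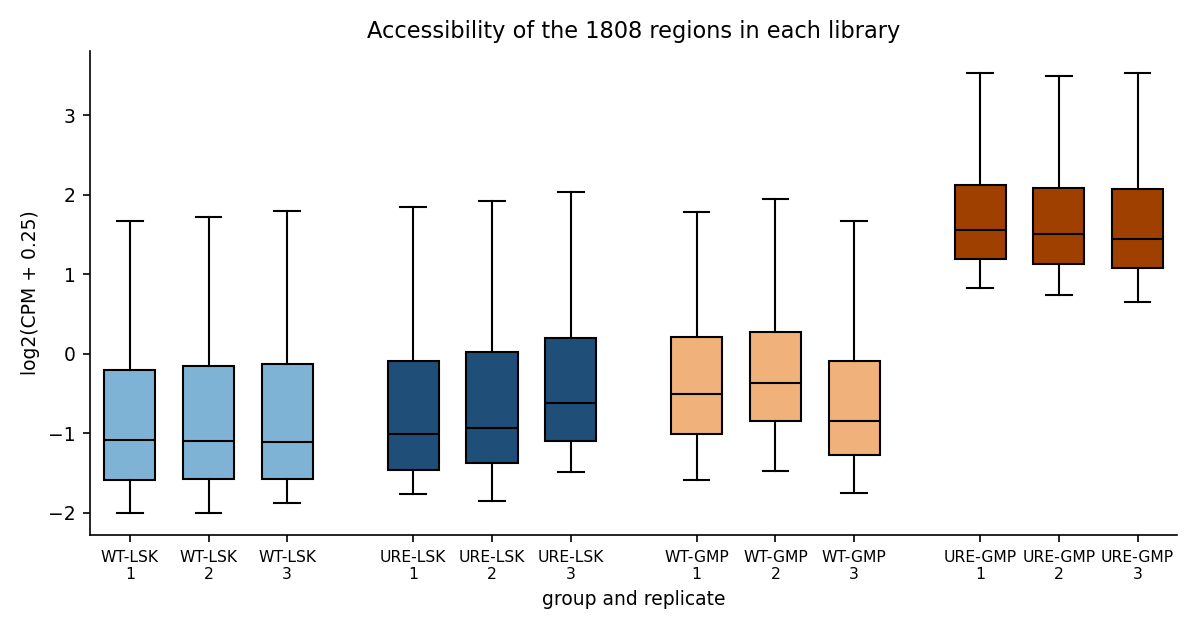
Accessibility of the 1808 regions as log2(CPM + 0.25) (y axis) in each of the 12 libraries (x axis), with boxes from the lower to the upper quartile, a line at the median and whiskers from the 5th to the 95th percentile. The URE-GMP medians correspond to 2.69, 2.6 and 2.48 CPM, and the medians of the other 9 libraries lie between 0.216 and 0.524 CPM.

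The gain in GMP was of similar size in the URE-GMP libraries. The ratio of the rule had a median of 3.83, with quartiles of 3.07 and 5.2 and a highest value of 17.9, and 830 regions had a ratio of at least 4. The 3 URE-GMP libraries lay above all 3 WT-GMP libraries in 1806 of the 1808 regions, which the choice of regions largely fixes, against 27.5% of all regions. The coefficient of variation of the URE-GMP libraries had a median of 14%, and in 79 regions the highest URE-GMP library was over 2 times the lowest. The edgeR quasi-likelihood fit, with a call at a Benjamini-Hochberg adjusted p under 0.05 and a log2 fold change over 1, called all 1808 regions higher in URE-GMP than in WT-GMP, beside 15.6% of all regions. Their fitted log2 fold change had a median of 2.57 (quartiles 2.03 and 3.29), against 0.06 over all regions. It exceeds the log2 of the ratio of the rule because the pseudocount of 0.25 CPM pulls the ratios of near-closed regions towards 1.

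The name of gains in GMP alone held for the limits used and less well without the pseudocount. The fitted log2 fold change in LSK had a median of 0.64 over the gained regions, against 0.14 over all regions, and 158 of them (8.74%) were called higher in URE-LSK, beside 13.6% of all regions. This count was 56 without URE-LSK replicate 3, 83 without WT-LSK replicate 1 and 102 without WT-LSK replicate 3. Without the pseudocount, 815 of the regions had a URE-LSK over WT-LSK ratio above 1.5 and 44 had one under 0.67. Of the 815, 687 came from the 1166 regions under 0.5 CPM in both LSK groups. All 9207 regions of the table at that low level had a median LSK log2 fold change of 0.54, against 0.85 for the gained ones among them. The gained regions at 1 CPM or more in LSK had a median of 0.46 in LSK and 1.83 in GMP. With loess offsets, which let the scaling vary with abundance, 1372 of the 1808 regions were called higher in URE-LSK, beside 26.5% of all regions, and the median LSK log2 fold change was 2.13. Of these calls 1036 were in the regions under 0.5 CPM in both LSK groups, where 65.6% of all regions at that level were called, and there the median with loess offsets was 2.51 in the gained regions and 2.08 in all. The loess scaling moved the median of all regions by 0.3 in LSK and by 0.54 in GMP on the log2 scale, and the median of the gained regions in GMP was then 4.49. The limits that chose the regions require a larger gain in GMP than in LSK. The difference between the 2 (the interaction) had a median of 1.92 with TMM scaling and 2.28 with loess offsets, which describes the choice only.

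The interaction, the log2 fold change in GMP minus that in LSK, was called in 979 of the regions (54.1%), beside 8.96% of all regions, and nothing is read from it since the limits set both fold changes. Among the 383 regions at 1 CPM or more in LSK it was called in 313, and among the 1166 under 0.5 CPM in both LSK groups in 473. The median standard error of the LSK log2 fold change was 0.25 in the former and 0.63 in the latter, so an LSK change was measured less precisely in the near-closed regions. The CEBP share was 33% in the regions with a called interaction and 37.3% in the other 829.

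**Figure D4:**
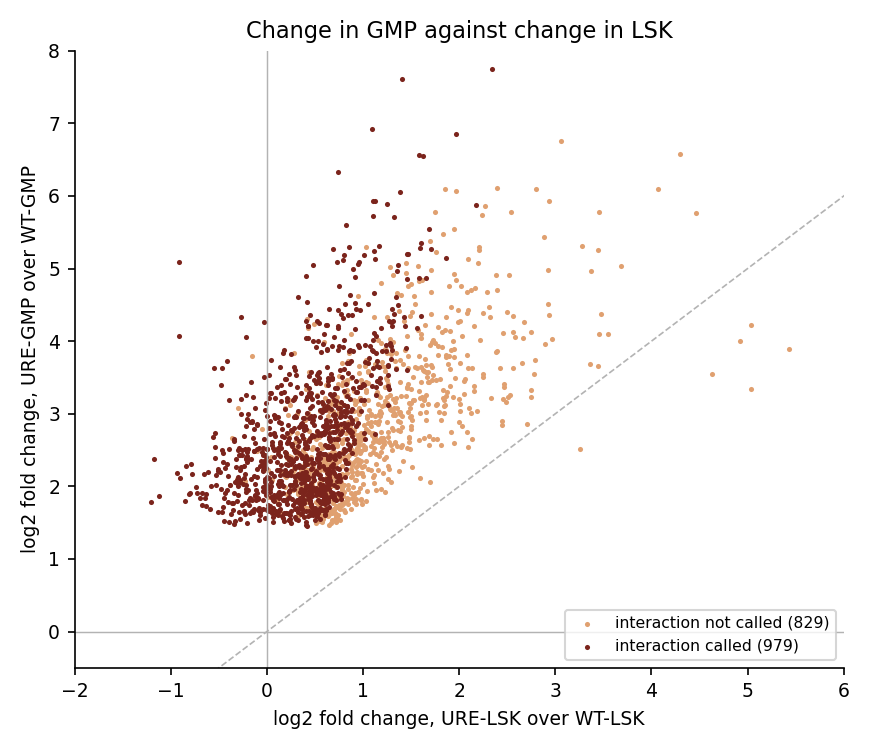
Fitted log2 fold change of URE over WT in GMP (y axis) against that in LSK (x axis), 1 point per gained region, with the dashed line at equal change. The 979 dark points have a called interaction, the 829 light points do not, and the light point farthest right, at 5.43, is a region at 0 counts in WT-LSK, whose fitted value depends on the prior count.

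The WT step from LSK to GMP was also not flat for every region. WT-GMP over WT-LSK had a median ratio of 1.4 by the rule and was above 1 in 1488 regions. The fit called 664 of the regions (36.7%) higher in WT-GMP compared with WT-LSK, beside 21% of all regions, and 18 lower, beside 16.8%. The 664 depended on single libraries and was 304 without WT-GMP replicate 2, 432 without WT-LSK replicate 1 and 389 without WT-LSK replicate 3, and with loess offsets it was 121. In URE mice 1717 of the regions were called higher in GMP than in LSK, beside 27.6% of all regions.

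The gained regions were narrower and farther from genes than all regions, as were those gained only in URE-LSK. Their median width was 261 bp, against 322 bp for all regions and 269 bp for those gained only in URE-LSK, and 4.92% lay at most 500 bp from an annotated transcription start, against 15.8% of all regions, 4.92% of those gained in both cell types, 2.97% of those gained only in URE-LSK and 4.55% of those that open in WT-GMP. Introns held 52.4% (all regions 44.1%), intergenic sequence 34.8% (32.2%), coding exons 4.92% (4.86%), untranslated regions 2.1% (1.72%) and non-coding exons 0.83% (1.36%). The median distance to the nearest start of a protein-coding gene was 26 kb, against 18 kb for all regions, 22.4 kb for regions that open in WT-GMP, 40.7 kb for those gained in both cell types and 41.7 kb for those gained only in URE-LSK. For the 830 regions with a ratio of at least 4 it was 34.2 kb. GC content (median 48.3% against 49.7%) and the mean repeat-masked share (14.4% against 14%) were close to those of all regions, while CpG pairs in the central 300 bp averaged 3.8 against 7.16, with 3.66 in regions that open in WT-GMP and 3.44 in those gained only in URE-LSK.

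Of the 8 largest gains among regions with at least 5 CPM in URE-GMP, all but the one at Ptprn were under 1 CPM in the 3 other groups. The region in an intron of the non-coding gene Gm41386, chr15:93711216-93711672, had the highest ratio of all 1808 (17.9). It had 0.165, 0.218 and 0.0237 CPM in WT-GMP against 6.5, 7.03 and 6.39 CPM in URE-GMP, with 0.224, 0.0867 and 0.173 CPM in WT-LSK against 0.159, 0.437 and 0.433 CPM in URE-LSK. The URE-GMP libraries stood alone, and the other 9 overlapped.

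Ptprn encodes a receptor-type phosphatase-like protein of secretory granules. The region over its coding sequence, chr1:75255543-75256381, had 1.44, 0.808 and 0.97 CPM in WT-GMP against 22.2, 15.1 and 29.8 CPM in URE-GMP. It had 2.01, 1.82 and 1.04 CPM in WT-LSK against 1.81, 0.902 and 3.12 CPM in URE-LSK, so the LSK groups overlapped. Its log2 fold change was 4.54 ± 0.4 (SE) in GMP and 0.41 in LSK.

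Adamts9 encodes a secreted metalloprotease, and the first sequence printed above is from its intron. The region chr6:92784390-92784765 had 0.495, 0.655 and 0.426 CPM in WT-GMP against 9.64, 7.22 and 11.1 CPM in URE-GMP. It had 0.308, 0.563 and 0.389 CPM in WT-LSK against 0.34, 0.465 and 0.823 CPM in URE-LSK. The LSK libraries overlapped with each other and with WT-GMP.

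The Syne2 exon printed above (Syne2 encodes nesprin-2, which links the nuclear envelope to the cytoskeleton) lies in chr12:75905290-75905645. It had 0.289, 0.328 and 0.0946 CPM in WT-GMP against 5.4, 3.68 and 7.94 CPM in URE-GMP. In LSK it had 0.0559, 0.0867 and 0 CPM in WT and 0.136, 0.0273 and 0.412 CPM in URE, so its LSK ratio of 1.48 rested on a handful of counts.

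The other 4 of these 8 regions lay between genes or in an untranslated region. The site downstream of Mpdz, a scaffold protein gene 155.9 kb away, had 4.65, 4.74 and 8.66 CPM in URE-GMP and a mean of 0.151 CPM in WT-GMP. The site 119.5 kb from Rplp1, a ribosomal stalk protein gene, had 6.08, 5.74 and 6.93 CPM against a mean of 0.269 CPM. The site 6.53 kb upstream of Plscr5, of the phospholipid scramblase family, had 7.75, 6.35 and 8.55 CPM against a mean of 0.391 CPM. The site in the untranslated region of Ube2v1, a ubiquitin-conjugating enzyme variant, had 6.1, 4.04 and 5.62 CPM against a mean of 0.213 CPM. In none of these 4 did a WT-GMP library come near a URE-GMP library, and none had a CEBP match in its central 300 bp. The Gm41386 and Ptprn regions had no CEBP match there either, so of the 8 only the Adamts9 and Syne2 regions, both printed above, held one.

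The regions that were most open in URE-GMP were already open in the other groups. The promoter of Fbxo27, an F-box protein gene, had 11.1, 16.1 and 9.01 CPM in WT-GMP against 57.9, 53.3 and 62.7 CPM in URE-GMP (chr7:28693335-28694058). It had 12.1, 11.2 and 11.6 CPM in WT-LSK against 15.9, 17.7 and 16.6 CPM in URE-LSK. The URE-LSK libraries were thus all above the WT-LSK libraries, by far less than in GMP.

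Ets1 encodes an ETS factor of lymphoid cells and early progenitors. The region in its intron, chr9:32705789-32706592, had 28.6, 30.7 and 29.1 CPM in WT-LSK against 15.2, 21.1 and 19.7 CPM in WT-GMP. It had 46.6, 40.8 and 56.5 CPM in URE-GMP and 19.1, 21.8 and 23.3 CPM in URE-LSK. All URE-LSK libraries were below those of WT-LSK, and all URE-GMP libraries were above those of every other group.

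Podnl1 encodes a small leucine-rich proteoglycan. The region over its coding exon, chr8:84126830-84127873, had 11.4, 13.2 and 13 CPM in WT-GMP against 40.6, 35.4 and 45.4 CPM in URE-GMP. It had 26.4, 22.1 and 23.8 CPM in WT-LSK against 34.2, 30.3 and 39.1 CPM in URE-LSK, so the URE-GMP and URE-LSK libraries overlapped, WT-LSK lay below them and WT-GMP lowest. An intergenic region 461.9 kb from Ccdc171 had 14.9, 15.6 and 13.2 CPM in WT-GMP against 40.9, 38.3 and 43.5 CPM in URE-GMP. A region in an intron of Igf1r, the insulin-like growth factor receptor gene, had 17.7, 16 and 12.8 CPM and 40.6, 39.8 and 41.1 CPM. In LSK the Igf1r region had 9.48, 7.89 and 9.82 CPM in WT against 10.9, 11.8 and 14.8 CPM in URE. All its URE-LSK libraries were thus above those of WT-LSK, whereas the LSK groups overlapped at the region far from Ccdc171.

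**Figure D5:**
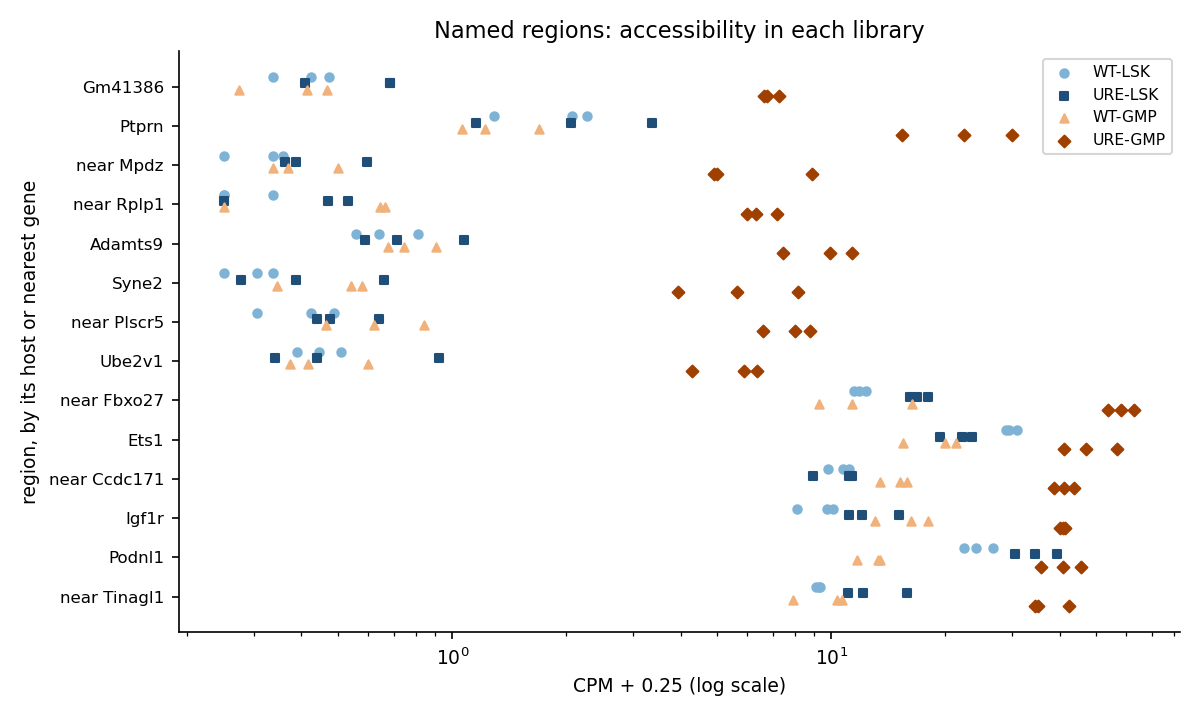
Accessibility as CPM + 0.25 on a log axis (x axis) of 14 regions named by their host or nearest gene (y axis), with 1 marker per library and a colour and shape per group. The upper 8 regions have the largest ratios at 5 CPM or more and the lower 6 the highest URE-GMP levels, and at Podnl1 the URE-LSK and URE-GMP markers overlap.

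Among the 89 regions at promoters, the highest after Fbxo27 was upstream of Tinagl1, which encodes a matrix protein, and a second region at Tinagl1 was also among the 6 highest. The upstream one, printed above, had 10.4, 10.1 and 7.66 CPM in WT-GMP against 34.9, 34.2 and 42.1 CPM in URE-GMP. The one over the start site had 8.38, 7.69 and 8.09 CPM and 22.9, 22.3 and 22.4 CPM. The promoter of Degs2, a sphingolipid hydroxylase gene, had 10.1, 7.75 and 4.87 CPM and 30.5, 22.5 and 29.7 CPM. The other 2 lay at the starts of the non-coding genes Gm17229 (6.73, 7.62 and 5.72 CPM against 32.1, 24.5 and 35.9 CPM) and Gm18723 (3.05, 6.47 and 4.09 CPM against 16.9, 15.5 and 14.6 CPM). In each of these promoter regions the WT-GMP and URE-GMP libraries did not overlap. In LSK the upstream Tinagl1 region had 9.01, 8.88 and 9.11 CPM in WT against 10.8, 11.9 and 15.6 CPM in URE. The Tinagl1 region over the start site had 13.1, 14.9 and 17.1 CPM against 17.5, 20.1 and 19.2 CPM. All URE-LSK libraries were thus above those of WT-LSK at both Tinagl1 regions, and the LSK groups overlapped at Degs2, Gm17229 and Gm18723.

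Regions near genes of the blood cell lists were few, and nearness does not show which gene a region acts on. A region was assigned to the nearest protein-coding start within 100 kb, which 1494 of the gained regions had, at 1266 genes. Late neutrophil granule genes had 3 gained regions (0.166%, against 0.0865% of all regions) and primary granule genes 1 (0.0553% against 0.0997%). The neutrophil receptor and enzyme list had 4 (0.221% against 0.294%), and the monocyte-macrophage list 1 (0.0553% against 0.19%). The C/EBP family had none among 82 regions in all and the cell cycle list none among 289. Other myeloid transcription factors had 13 (0.719% against 0.608%), at 9 genes. Autophagy genes had 6 (0.332% against 0.213%) and Bcl2 family genes 3 (0.166% against 0.138%).

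The remaining lists were near their share of all regions or below it. They were AP-1 and Maf genes with 3 (0.166% against 0.242%), stem cell genes with 4 (0.221% against 0.29%), T and NK genes with 5 (0.277% against 0.254%), B lineage genes with 1 (0.0553% against 0.152%), dendritic and MHC class II genes with 1 (0.0553% against 0.129%), erythroid genes with 2 (0.111% against 0.13%), megakaryocyte genes with 2 (0.111% against 0.197%), mast cell, basophil and eosinophil genes with 2 (0.111% against 0.191%), interferon response genes with 3 (0.166% against 0.185%) and ribosomal protein genes with 3 (0.166% against 0.288%). No list was tested, and all of these counts are small.

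The region of the transcription factor list with the largest ratio lay 58.4 kb from Trib1, a pseudokinase gene whose product directs C/EBPα to degradation, and its sequence is printed above. It had 1.32, 0.699 and 0.237 CPM in WT-GMP against 6.63, 7.59 and 4.32 CPM in URE-GMP, and 0.308, 0.433 and 0.237 CPM in WT-LSK against 0.34, 0.219 and 0.585 CPM in URE-LSK. The LSK groups overlapped. In the autophagy list the region was an intron of Atg14, a subunit of the lipid kinase complex that starts autophagosomes. It had 0.0413, 0.0874 and 0 CPM in WT-GMP against 2.06, 1.75 and 3.82 CPM in URE-GMP. Its LSK levels were 0, 0 and 0.0432 CPM in WT and 0.0454, 0.109 and 0.13 CPM in URE, a few counts per library.

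Padi4 encodes the enzyme that citrullinates histones in neutrophils. The region 0.673 kb upstream of its start had 0.413, 0.524 and 0.355 CPM in WT-GMP against 2.79, 3.44 and 3.02 CPM in URE-GMP. Near the stefin gene BC100530, of the late neutrophil list, a region had 0.248, 0.197 and 0.118 CPM and 3.26, 2.04 and 2.32 CPM. The primary granule region lay in a coding exon of Cpne5, 31.5 kb from the start of Rab44, a Rab family gene, and had 0.867, 0.939 and 0.804 CPM and 5.53, 5.27 and 5.41 CPM. In all 3 the WT-GMP and URE-GMP libraries were apart.

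Regions near genes of other lineages were gained as well. The intron of Bcl11b, a T cell factor gene, had a mean of 0.0803 CPM in WT-GMP against 1.96 CPM in URE-GMP. The region 55.9 kb from Msi2, an RNA-binding protein gene of stem cells, had means of 0.147 and 2.77 CPM and holds a CEBP-ATF match. The intron of Itga1, nearest to the collagen receptor gene Itga2 and printed above, had 0.66, 1.31 and 0.544 CPM in WT-GMP against 8.3, 7.78 and 8.03 CPM in URE-GMP. The region 5.81 kb upstream of Tcf4, a factor of plasmacytoid dendritic cells, had 1.98, 5.11 and 3.36 CPM and 12, 7.14 and 15.2 CPM. The libraries of WT-GMP and URE-GMP were apart in each of these regions.

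The other lists are given by the ratio of their leading region. The ratios were 7.61 at Itga2, 6.68 at Bcl11b, 5.99 at Ank1 (erythroid ankyrin), 5.22 at the ribosomal protein gene Rpl14, 4.86 at Irf2, 4.15 at Bach1, 4 at Foxo1, 3.89 in an intron of Bcl2l11 (the death-promoting Bim), 3.41 at Thbs1 (thrombospondin) and 3.41 at F13a1. The Bcl2l11 intron had 0.165, 0.393 and 0.118 CPM in WT-GMP against 1.59, 1.58 and 1.64 CPM in URE-GMP.

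The study's 4 gene signatures, defined on single-cell RNA-seq of the same genotypes, gave larger counts. They were drawn from the same mouse model and are not independent evidence of direction. Signature 4, the genes overexpressed in URE cells along the neutrophil path, was nearest to 157 of the gained regions (8.68%) at 116 genes, against 5.1% of all regions. The share was 7.73% of the regions gained in both cell types, 7.71% of those that open in WT-GMP and 3.95% of those gained only in URE-LSK. Signature 3, also overexpressed, had 2.93% against 2.71%. Signature 1 had 1.22% against 2.15% and signature 2 had 1.71% against 3.23%, both of them sets of genes that are underexpressed in URE cells.

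Promoters of the nearest genes differed little. For 988 genes with a separate promoter region, the median log2 fold change in GMP was 0.23, against 0.18 over 13143 genes with a promoter region, and 36 promoters (3.64%) were called higher in URE-GMP, beside 2.35% of all promoters. The 101 promoters of signature 4 genes among them had a median of 0.39, and 10 were called higher (9.9%). Signature 4 was defined by overexpression in URE cells, and its promoters without a gained region nearby were not counted. These 2 values therefore say nothing on nearness to a gained region. Other regions close to the gained ones moved with them in part. Of 4088 other regions within 10 kb, 27.5% were called higher in URE-GMP, against 18.5% from 10 to 50 kb, 15% from 50 to 100 kb and 13.1% beyond, and their median log2 fold change was 0.38, 0.2, 0.1 and -0.01.

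Of the 1808 regions, 492 had another gained region within 50 kb, in 188 pairs, 25 groups of 3, 5 of 4, 3 of 5 and 1 of 6. The group of 6 spanned 42 kb in Mgll, the monoacylglycerol lipase gene (chr6:88727024-88769012), where 14 regions of the table lay. Its members summed to 4.72 CPM in WT-GMP against 25.2 CPM in URE-GMP, and to 2.67 CPM in WT-LSK against 3.21 CPM in URE-LSK. Their ratios ran from 2.92 to 6.3, and 1 of the 6 held CEBP. The highest of them had 1.32, 2.12 and 0.804 CPM in WT-GMP against 11.1, 9.55 and 10 CPM in URE-GMP.

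The 3 groups of 5 were within Sema6a, a semaphorin gene, at Camk4 and Wdr36, and between Snai1 and Ube2v1. At Sema6a the 5 members summed to 7.33 CPM in WT-GMP against 40.6 CPM in URE-GMP, and 5 of the 7 regions in the span were members. At Camk4, a calmodulin-dependent kinase gene, the sums were 3.33 and 21.5 CPM. Between Snai1 and Ube2v1 they were 2.66 and 21 CPM. The LSK sums of WT and URE differed far less, and were 6.61 and 7.26 at Sema6a, 3.91 and 4.21 at Camk4, and 2.36 and 2.78 between Snai1 and Ube2v1.

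A further pair of places was chosen after the values were seen. Of the 1808 regions 6 overlapped an enhancer element listed by RefSeq (0.332%, against 0.343% of all regions), and 1 of the 6 is a fragment in Gfi1, which encodes a repressor needed for neutrophil production. This region, chr5:107717921-107718423, had group means of 19.2 CPM in URE-GMP, 6.32 CPM in WT-GMP, 6.2 CPM in URE-LSK, with 9.34 CPM in WT-LSK. The second place is the long intron of Etv6, an ETS repressor gene, which held 6 members in 2 separate stretches, with ratios of 3.4, 3.57, 3.81, 3.16, 2.68 and 3.31.

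The limit of 2.5 on the ratio split regions of like values. Just inside were a coding exon of Ccdc155 (2.5003) and an intron of Selenon (2.5005). Just outside were an intron of Fto (2.4977) and an intron of Dcbld1 (2.4973). The Selenon intron had 9.82, 9.55 and 7.64 CPM in WT-GMP against 24.6, 19.8 and 24.2 CPM in URE-GMP, and the Dcbld1 intron 2.89, 4.43 and 3.52 CPM and 8.46, 8.63 and 11.1 CPM. The libraries of the 2 groups were apart in both.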

How the data were processed

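ATAC-seq counts of 12 mouse bone marrow libraries, 3 per group, were analysed. The authors deposited raw counts per open chromatin region without normalization. Per the submitters' processing notes and the study's methods, reads were trimmed with cutadapt and aligned to GRCm38 with Bowtie2, duplicates were removed, peaks were called per group with Genrich and merged, and counts were made with featureCounts. Whether read ends were shifted to the cut site is not given in the sources used here. The merging means that a region open in 1 group is counted in all, so a near-closed group is measured by few counts. Region starts were taken as counted from 0 and are given counted from 1.

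CPM used the column sums. The counts were fitted with edgeR 4.0.16 (R 4.3.3), TMM scaling, 1 coefficient per group, 2-sided quasi-likelihood tests and Benjamini-Hochberg adjustment over all 121336 regions. The filter filterByExpr removed 0 regions. Fold changes, standard errors and calls (adjusted p under 0.05, absolute log2 fold change over 1) come from this fit. On simulated counts the step was checked with 200 changed regions. The alternatives used DESeq2 1.42.0, limma 3.58.1 (loess offsets) and the settings given in the closing section. Labels do not say whether libraries of 1 number share a mouse. Intervals and counts of 3 cover counting error only.

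Positions use GENCODE M21 and the RefSeq sequence of GRCm38.p6, and motifs were counted in the central 300 bp. The comparison sets were those gained in both cell types (both ratios at least 2.5), gained only in LSK and lost only in GMP (the limits of the rule mirrored, with a lost ratio of at most 0.4) and higher in WT-GMP (WT-GMP over WT-LSK at least 2.5). The members, gene lists, motifs and named regions were chosen with earlier results of these data known. Named regions were the 8 with the largest ratio at 5 CPM or more, the 6 highest in URE-GMP, the 6 highest promoters, the leading region of each gene list, the groups of most members (4 because of a tie) and 2 regions on each side of the limit.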

Additional observations from a re-analysis of the deposited data

Results flagged for a closer look

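The genotype effect differed between GMP and LSK in 979 of the gained regions by the interaction term of the edgeR quasi-likelihood fit. The limits that chose the regions require this difference, so the count describes the choice and is no separate finding. Groups of 3 libraries were too small for a test of outlying libraries.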

How the results depend on the processing

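Leaving out each library and applying the rule to the other 11 gave between 1478 and 2230 regions, the lowest without WT-GMP replicate 3, of which 1397 were among the 1808. The number of regions was 781 with no pseudocount, of which 620 were among the 1808, 830 with a ratio of at least 4, 811 with URE-GMP at least 3 and 965 with narrower limits on the LSK ratio. A pseudocount of 1 gave 2448 regions, of which 815 were among the 1808. In all 20 settings the CEBP share was between 28.4% and 43% and the PU.1 share between 1.33% and 2.49%.

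The motif shares were 30.7% for CEBP, 12.2% for RUNX and 1.44% for PU.1 in the central 200 bp, and with a ratio of at least 4 they were 43% for CEBP and 1.33% for PU.1. At that ratio 38.4% of the regions were beyond 50 kb from a coding start, against 33%. Within 50 kb, signature 4 had 7.02%.

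Of the call counts, members called in LSK were 92 with library size only, 1372 with loess offsets, 20 with glmTreat and 14 at an adjusted p under 0.01. The interaction was called in 207 with glmTreat and 436 at an adjusted p under 0.01. The WT step from LSK to GMP was called in 121 with loess offsets, 129 with glmTreat and 308 at an adjusted p under 0.01. A mean CPM of at least 2 left 330 members, of which edgeR called 330 in GMP, 0 in LSK, 298 in the interaction, 39 in the WT step and 274 in the URE step. Of these 330, 63 had an unadjusted p under 0.05 in LSK, and 0 of them a log2 fold change over 1 as well. DESeq2, without that filter, called 209 members in LSK. In the main fit, 0 of the 383 members at 1 CPM or more in WT-LSK or URE-LSK were called higher in LSK. The rule kept URE-LSK over WT-LSK at or under 1.5, which at this level leaves hardly any room for a log2 fold change over 1. This 0 therefore describes the choice of regions and does not test for a change in LSK. The same limit bears on the 0 in LSK among the 330, less tightly for those near closed in LSK. The cause of the differing counts was not tested for any of these settings. Without a filter on low counts the values were those reported. Leaving out 1 library gave 1808 to 1808 calls in GMP, 56 to 199 in LSK, 731 to 1043 in the interaction, 304 to 754 in the WT step and 1713 to 1723 in the URE step. The LSK count was 56 without URE-LSK replicate 3, 83 without WT-LSK replicate 1 and 102 without WT-LSK replicate 3. All 1205 values of the 59 named regions in GMP under these settings had the same direction and call as reported.

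With same-numbered libraries blocked (a replicate block), members called were 1808 in GMP, 155 in LSK, 1037 in the interaction, 646 in the WT step and 1720 in the URE step, so no count moved by over 1.5 times. This block joins WT and URE libraries of the same number, which are different mice, so it does not model a mouse shared within a genotype. Within each genotype, LSK and GMP libraries of the same number both had Y counts or both lacked them. Replicate 3 differed between WT and URE in this. Deviations from the group means of same-numbered libraries correlated at 0.112, 0.23 and 0.401 between WT-GMP and URE-GMP, at 0.211, 0.242 and 0.252 between WT-LSK and WT-GMP, at 0.0947, 0.308 and 0.154 between URE-LSK and URE-GMP and at 0.136, 0.0635 and -0.0988 between WT-LSK and URE-LSK. All were over the limit of 0.1 set for pairing in the first 2 comparisons only.

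Depth limits the groups in which the regions were near closed. In WT-LSK 406 to 702 of the 1808 regions had at most 3 counts in a library, in URE-LSK 56 to 306 and in WT-GMP 66 to 243.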
